A study of Mus musculus with 10 samples.

Results

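This report concerns 40 genes of the cell division cycle and DNA replication in endothelial cells purified from mouse gliomas. The genes were taken by symbol from a list of cell cycle and replication genes, by a rule that uses no measured value, and all 40 were found among the 23238 gene symbols shared by the deposited count files. They comprised 23 genes of G2 phase and mitosis (G2/M), 10 genes of the S phase replication machinery, 6 regulators of the passage from G1 into S phase (G1/S) and the G1 cyclin Ccnd1. Glioma cells, named GL26l in the design text, were placed in the brains of mice with a C57BL/6 background. Sox7 or Sox17, a pair of related SoxF transcription factors active in vessels, was removed by crossing Sox7 fl/fl or Sox17 fl/fl alleles with the tamoxifen-inducible Cdh5(BAC)-CreERT2 line, whose recombinase is driven by the promoter of the endothelial cadherin Cdh5. The Sox7 arm had 2 control and 2 deficient libraries and the Sox17 arm 3 of each. Equal numbers in their titles were taken to mark the 2 libraries of a set. Tamoxifen at 20 mg/kg is stated for the experimental mice, while the genotype and treatment of the controls, the animals' age and whether each library came from its own animal are not given in the sources used here. Effects of tamoxifen or the recombinase therefore cannot be told apart from those of the deletion, and the p-values cover only how far these libraries differed from one another, in part perhaps for technical reasons.

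Cells that commit to division make cyclins and licensing factors at the G1/S boundary, load and fire the MCM helicase in S phase, and then build the spindle and separate the chromosomes in mitosis. Transcripts of these genes rise and fall with the cycle, so quiescent vessels of the adult brain hold little of them and tumour vessels, which sprout and divide, hold more. Most S phase genes carry E2F elements in their promoters, whereas many G2/M genes are controlled through a cell cycle genes homology region (CHR) together with CCAAT boxes bound by NF-Y, with B-Myb and Foxm1 among the activators. These genes mark any dividing cell and not endothelium alone.

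The promoters show this division between the classes. RefSeq promoter windows on GRCm38.p6, which run from 250 bases before to 50 bases after the start of a gene, were matched for 31 of the 40 genes, with 32 windows since Mcm7 has a pair. Each window was searched on both strands for the CHR (TTTGAA or TTCGAA), the CCAAT box (CCAAT) and the E2F element (TTTGGCGC, TTTCCCGC, TTTGCCGC, TTCCCGCC or TTTCGCGC, words that can overlap one another). The 250 upstream bases are shown for the G2/M and the S phase genes with the highest mean levels that had a window, Top2a (chr11:99024190-99024439), Cdk1 (chr10:69352913-69353162), Mcm3 (chr1:20820313-20820562) and Mcm6 (chr1:128359706-128359955), all on the minus strand and written 5′ to 3′ along the gene. Capitals mark every match to one of these words on either strand.
Top2a: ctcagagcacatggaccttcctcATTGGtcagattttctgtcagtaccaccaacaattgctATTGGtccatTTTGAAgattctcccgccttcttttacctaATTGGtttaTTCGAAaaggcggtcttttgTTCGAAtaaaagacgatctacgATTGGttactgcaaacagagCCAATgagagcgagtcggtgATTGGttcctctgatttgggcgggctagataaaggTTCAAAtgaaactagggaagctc
Cdk1: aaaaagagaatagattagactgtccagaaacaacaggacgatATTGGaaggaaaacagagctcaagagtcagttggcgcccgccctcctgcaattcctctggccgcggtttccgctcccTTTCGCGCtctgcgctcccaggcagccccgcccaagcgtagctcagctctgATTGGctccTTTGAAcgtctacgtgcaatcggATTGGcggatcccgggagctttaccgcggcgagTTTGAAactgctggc
Mcm3: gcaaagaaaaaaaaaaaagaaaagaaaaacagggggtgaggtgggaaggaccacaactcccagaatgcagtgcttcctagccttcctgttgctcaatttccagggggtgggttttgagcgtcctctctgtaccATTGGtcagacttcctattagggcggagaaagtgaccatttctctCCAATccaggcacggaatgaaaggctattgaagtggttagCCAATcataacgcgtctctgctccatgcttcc
Mcm6: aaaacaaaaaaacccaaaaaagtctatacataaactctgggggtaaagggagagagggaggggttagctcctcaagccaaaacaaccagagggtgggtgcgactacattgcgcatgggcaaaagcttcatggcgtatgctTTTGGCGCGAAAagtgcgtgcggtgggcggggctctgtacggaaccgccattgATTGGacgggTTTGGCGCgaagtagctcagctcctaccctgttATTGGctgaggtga

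In these upstream bases the Top2a promoter held 4 CHR and 6 CCAAT matches, and the Cdk1 promoter held 2 CHR matches, 3 CCAAT matches and 1 E2F match, 131 bases before the start. The Mcm6 promoter held 3 E2F matches, 110, 106 and 47 bases before the start, and 2 CCAAT matches. The Mcm3 promoter held 3 CCAAT matches in the bases shown, and its E2F matches lay 19, 20 and 39 bases past the start, outside them. Over the classes, a CHR match was in 14 of 18 G2/M windows (77.8%), in 2 of 14 windows of S phase and G1/S genes (14.3%) and in 19.2% of all 32851 windows. An E2F match was in 1 of 18 G2/M windows (5.56%), that of Cdk1, in 7 of 14 windows of S phase and G1/S genes and in 3.89% of all windows. CCAAT boxes were common to both classes, with 16 of 18 (88.9%) and 9 of 14 windows (64.3%) against 37.4% of all windows. CHR and CCAAT occurred in the same window in 14 of 18 G2/M genes (77.8%) and in 7.52% of all windows. A match describes the letters and is not evidence of binding.

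**Figure D1:**
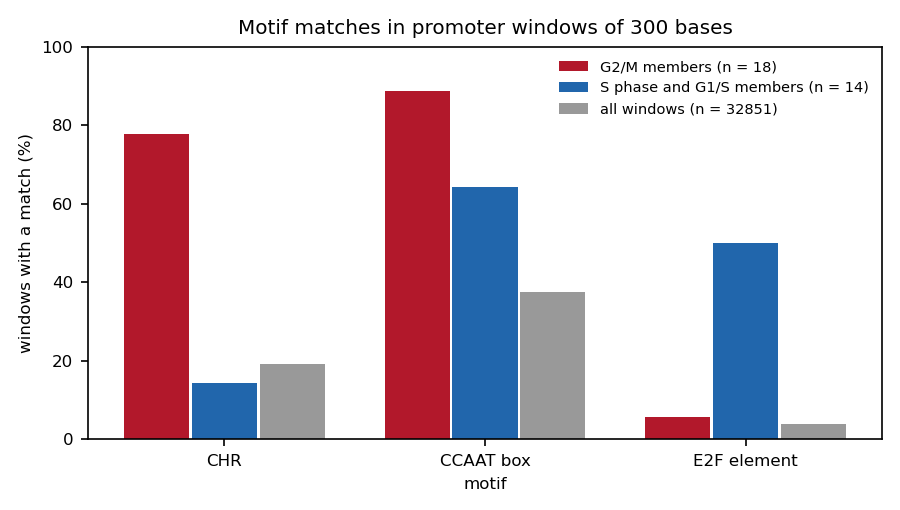
Share of promoter windows of 300 bases with a match to the CHR, the CCAAT box or the E2F element (vertical axis, percent) in 18 windows of G2/M genes, 14 windows of S phase and G1/S genes and all 32851 windows. The CHR bar is high for G2/M genes only (77.8%) among these 3 groups of windows, and the E2F bar for the S phase and G1/S genes only (7 of 14 windows).

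The libraries held between 2082305 and 35068802 counts, with 9735 to 15744 genes detected. The level that 3 counts make up was 0.0847 CPM (counts put on a common library size by TMM scaling) in the deepest library, Sox17-deficient 2, and 1.36 CPM in the shallowest, Sox17 control 1; such floors cover counting error only. The targeted genes followed the labels: Sox7 was at 5.9 to 23.1 CPM in its controls and 0.577 to 0.664 CPM in the Sox7-deficient libraries, and Sox17 was at 90.1 to 174 CPM in its controls and 1.07 to 6.7 CPM in the Sox17-deficient libraries. All 16 pan-endothelial markers, among them Pecam1, Cdh5 and Kdr, had counts in every library, with a summed level of 10608 to 20664 CPM. The T and NK cell sum was at most 38.4 CPM, the astrocyte and neuron sum at most 102 CPM, and the glioma and neural progenitor sum 66.2 to 198 CPM. Markers of macrophages and of pericytes differed more between libraries and are given beside the results.

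The 40 genes together took 0.147 to 0.355% of the counts of a library. All 40 passed the filter on low counts, 28 had a count in all 10 libraries and 12 were at 0 in at least 1 library. Summed over the class, the 23 G2/M genes stood at 981, 970, 616 and 300 CPM in Sox7 control 1, deficient 1, control 2 and deficient 2. In the Sox17 arm the same sum was 408, 501 and 972 CPM in controls 1 to 3 and 1102, 1019 and 1380 CPM in deficient libraries 1 to 3. The group means were 627.0 ± 302.4 and 1167.0 ± 189.1 CPM (SD, n = 3 each) in Sox17 control and deficient libraries and 798.5 ± 258.1 and 635.0 ± 473.8 CPM (SD, n = 2 each) in the Sox7 arm. The 3 Sox17-deficient libraries thus lay above their 3 controls, though control 3 came close to deficient 2. Sox7 set 2 was low in both of its libraries, and its deficient library held the lowest G2/M sum of the 10.

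The 10 S phase genes summed to 377, 423, 304 and 164 CPM in the Sox7 arm, in the same order. In the Sox17 arm they summed to 320, 346 and 449 CPM in controls 1 to 3 and 509, 475 and 388 CPM in deficient libraries 1 to 3. The Sox17 groups overlapped here, since deficient 3 was below control 3. The 6 G1/S regulators summed to 110, 178, 10.1 and 42.9 CPM in the Sox7 arm, 38.6, 76.2 and 145 CPM in Sox17 controls 1 to 3 and 112, 203 and 113 CPM in Sox17-deficient libraries 1 to 3. These groups overlapped in both arms. The G2/M sum over the S phase sum was 1.27, 1.45 and 2.16 in Sox17 controls 1 to 3 and 2.17, 2.15 and 3.56 in Sox17-deficient libraries 1 to 3, so the groups touched at about the level of control 3. In the Sox7 arm this ratio was 2.6, 2.29, 2.03 and 1.83 in the order above.

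**Figure D2:**
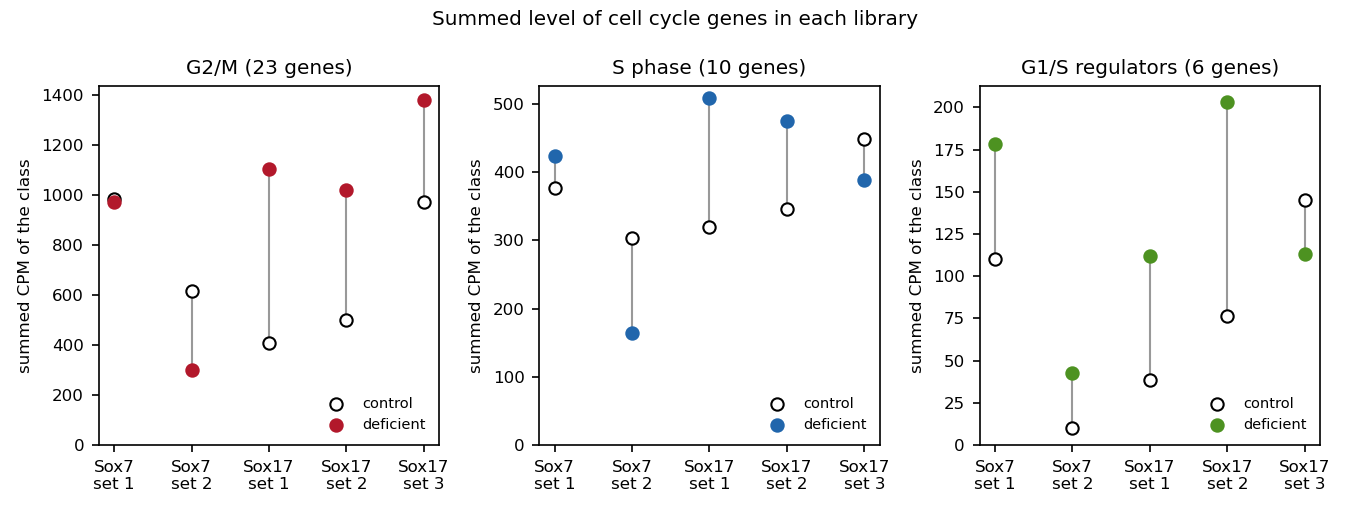
Summed CPM (vertical axes, from 0) of the G2/M, S phase and G1/S genes in each library, with the control (open) and deficient (filled) library of a set joined by a line; each point is 1 library. The 3 Sox17-deficient G2/M sums lie between 1019 and 1380 CPM, above the controls at 408 to 972 CPM, while Sox7 set 1 shows almost no difference and Sox7 set 2 a lower deficient library.

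Counted gene by gene, the number of the 40 genes above their own median over the 10 libraries was 26, 30, 10 and 3 in the Sox7 arm, 8, 8 and 30 in Sox17 controls 1 to 3 and 31, 24 and 30 in the Sox17-deficient libraries. The genes therefore moved together by library: both libraries of Sox7 set 2 and Sox17 controls 1 and 2 were low for most of them, and Sox17 control 3 was as high as its deficient partner. Genes at 0 counts were also most frequent in such libraries, with 4 in Sox7 control 2, 5 in Sox7-deficient 2, 8 in Sox17 control 1 and 2 in Sox17 control 2, and none in the other 6. The total was 9699934 counts in the control and 6781972 in the deficient library of Sox7 set 2. It was 2082305 in Sox17 control 1 and 11555795 in Sox17 control 2. Genes detected in these libraries, in the same order, numbered 11167, 10669, 9735 and 12760. They numbered 13728 and 13717 in Sox7 control 1 and deficient 1, at totals of 9515034 and 9207072 counts. In Sox17 control 3 and deficient 1 to 3 they numbered 15744, 11851, 12413 and 11787. The part of depth or of genes detected in these levels was not tested. In these bulk samples fewer dividing cells and less RNA of these genes per cell cannot be told apart.

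**Figure D3:**
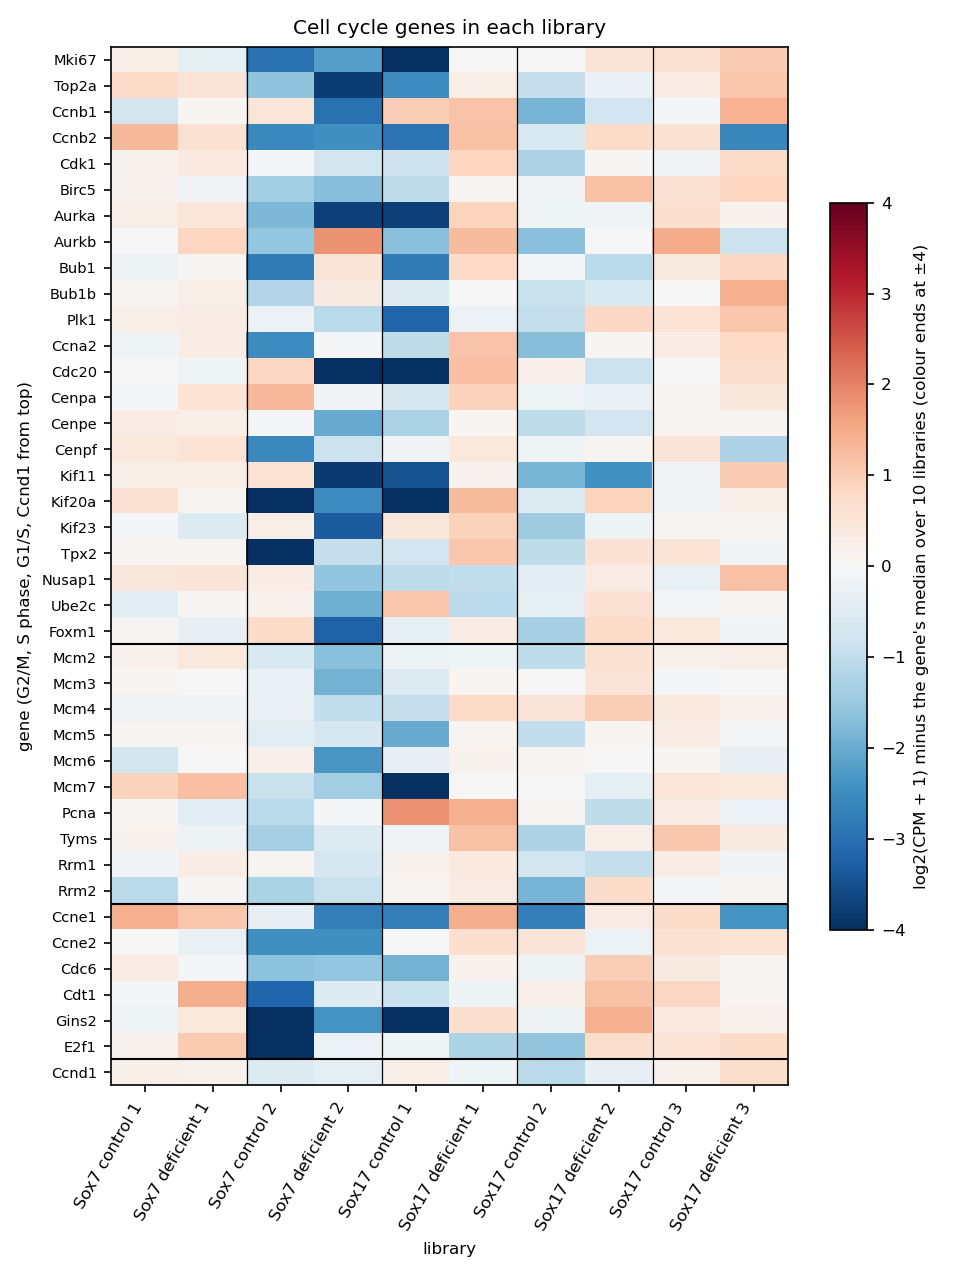
Heat map of the 40 genes (vertical axis, ordered G2/M, S phase, G1/S, Ccnd1) in the 10 libraries (horizontal axis, grouped by set); colour is log2(CPM + 1) minus the gene's median over the 10 libraries. Blue columns are the control and deficient library of Sox7 set 2 and Sox17 controls 1 and 2, where 10, 3, 8 and 8 genes lie above their own median.

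Does loss of Sox17 alter the cell cycle genes of tumour endothelium? The G2/M class was higher on balance in the Sox17-deficient libraries, but no gene of the 40 passed the test. The median fitted log2 fold change was 0.85 over the 23 G2/M genes, of which 21 were above 0, and 0.44 over the 10 S phase genes, 7 of them above 0. It was 0.66 over the 6 G1/S genes, 5 of them above 0, and 0.66 over all 40, with 34 above 0 and 6 below. Over the 13040 genes tested the median was 0.05 and 52.8% were above 0. By edgeR's quasi-likelihood test with Benjamini-Hochberg adjustment, 0 of the 40 passed an adjusted p of 0.05, and 0% of all genes tested did (smallest adjusted p among the 40, 1). DESeq2 and limma-voom also called 0 of the 40. At an unadjusted p under 0.05 there was 1 gene of the 40, Cdk1, which was higher, against 0.752% of all genes tested on the higher side and 2.77% on the lower side. With the set number as a replicate block, 4 genes were at an unadjusted p under 0.05 (Birc5, Cdk1, Plk1 and Top2a) and still 0 were called. That fit had 3 residual degrees of freedom, and its share of all genes under 0.05 was not counted. The shares above come from the fit without the block and cannot be set beside these 4 genes.

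Within the sets, the median difference of the 40 genes on the log2(CPM + 1) scale was 1.45 in set 1, 0.94 in set 2 and 0.04 in set 3, against 0.12, 0.00 and -0.12 for all genes tested. For the G2/M genes it was 1.83 (22 of 23 higher), 0.92 (19 of 23) and 0.40 (17 of 23), and the summed level was 2.7, 2.03 and 1.42 times that of the control. For the S phase genes it was 0.53, 0.49 and -0.31, with 9, 6 and 3 of 10 higher. G2/M and S phase genes thus went opposite ways on balance in set 3 and the same way in sets 1 and 2. The pairing of set 1 rests on the title numbers alone, without a run label. The deficient library was the deeper one in set 1 (6675524 against 2082305 counts) and in set 2 (35068802 against 11555795), and the shallower one in set 3 (8173194 against 16803284). Without both libraries of set 1, an alternative chosen after the data were seen, the fitted median was 0.38 over all 40, 0.56 over the G2/M genes and 0.04 over the S phase genes. Without Sox17 control 3 these medians were 1.25, 1.49 and 0.77. The G1/S median, 0.66, was 0.33 without Sox17-deficient 2 and 1.24 without Sox17 control 3. All 9 pericyte markers had a fitted log2 fold change below 0, with set medians of -0.74, -1.44 and 0.24 in sets 1, 2 and 3, and 6 of the 9 were higher in the deficient library of set 3. Their sum was 293 to 897 CPM in the controls and 228 to 266 CPM in the deficient libraries, with Anpep at 0 in 4 of the 10 libraries. The macrophage sum was 29.5 to 633 CPM in Sox17 controls and 48.7 to 316 CPM in the deficient libraries. The part of these markers and of depth in the result was not tested.

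**Figure D4:**
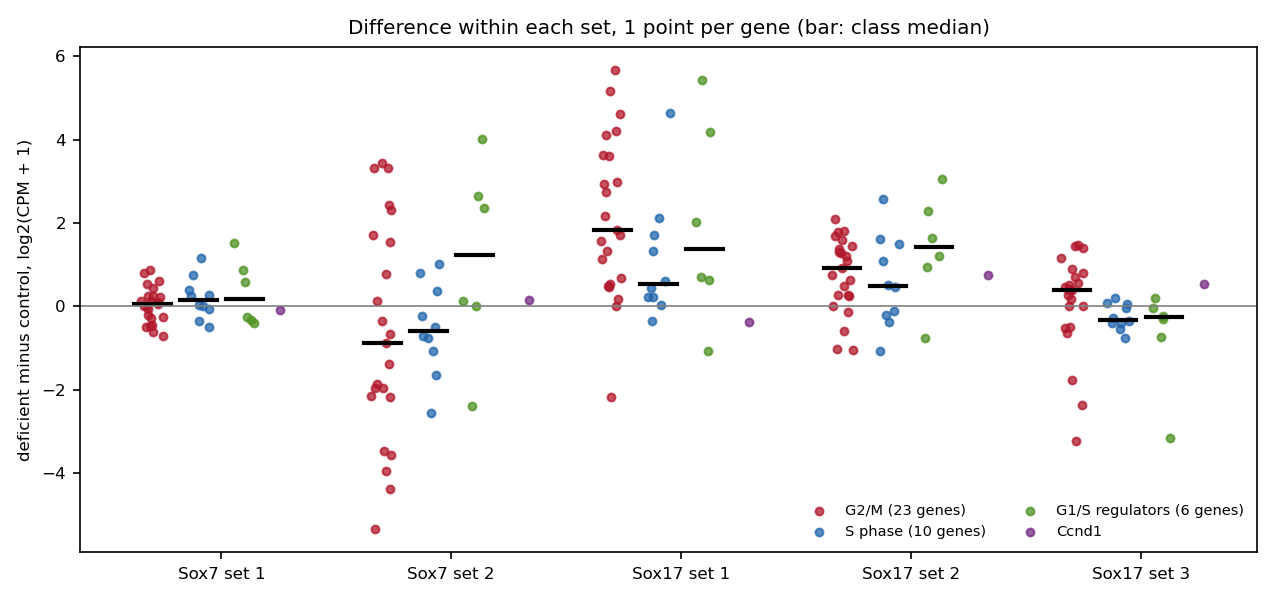
Difference between the deficient and the control library of each set on the log2(CPM + 1) scale (vertical axis), 1 point per gene, coloured by class, with a bar at the class median. The G2/M bars fall from 1.83 through 0.92 to 0.40 over Sox17 sets 1, 2 and 3, and stand at 0.06 and -0.87 in Sox7 sets 1 and 2.

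Among the mitotic regulators, Cdk1 (chr10:69335146-69352938), the kinase whose activation drives entry into mitosis, was at 60.4, 45.7 and 99.3 CPM in Sox17 controls 1 to 3 and at 198, 112 and 185 CPM in the deficient libraries. Every deficient library was above every control. The means were 68.5 ± 27.7 CPM and 165 ± 46.3 CPM (SD, n = 3 each), a fitted log2 difference of 1.27 ± 0.44 (SE) with an unadjusted edgeR p of 0.00983 and an adjusted p of 1. Across the other settings tried, its adjusted p ran no lower than 0.568, the value with the replicate block, and its unadjusted p was not under 0.05 without Sox17 control 2 or without both libraries of set 1. Plk1 (chr7:122159439-122169873), a kinase of centrosomes and the spindle, was at 8.62, 44.7 and 130 CPM in controls and 75.7, 156 and 193 CPM in deficient libraries, higher in each set although the groups overlapped (1.20 ± 0.73, SE). Without Sox17 control 1 the Plk1 difference was 0.68, and without Sox17 control 3 it was 2.38. Foxm1 (chr6:128362967-128376146), a transcription factor of G2/M genes, was at 12.7, 6.16 and 23.2 CPM in controls and 20.9, 29.4 and 15.8 CPM in deficient libraries, and the groups overlapped (0.65 ± 0.96, SE).

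Among the chromosome and spindle proteins, Top2a (chr11:98992943-99024189), the topoisomerase that untangles replicated chromosomes, was at 20.9, 63.8 and 150 CPM in controls and 146, 99.9 and 263 CPM in deficient libraries. It was higher in each set, but control 3 exceeded deficient 1 and 2 (1.11 ± 1.14, SE). Birc5 (chr11:117849251-117855743), survivin of the chromosomal passenger complex, was at 50.8, 93.5 and 157 CPM in controls and 113, 234 and 189 CPM in deficient libraries, again higher in each set with overlapping groups (0.83 ± 0.53, SE). Nusap1 (chr2:119618298-119651244), a microtubule-binding spindle protein, was at 15.4, 23.7 and 25.5 CPM in controls and 15.5, 40.5 and 72.2 CPM in deficient libraries. Set 1 showed almost no difference for Nusap1 while sets 2 and 3 did (0.98 ± 0.66, SE). Cenpa (chr5:30666777-30674830), the histone H3 variant of centromeres, was at 21.3, 29.9 and 35.4 CPM in controls and 64.9, 27.1 and 46.9 CPM in deficient libraries, with overlapping groups (0.68 ± 0.54, SE). Kif23 (chr9:61915905-61946774), a kinesin of the central spindle, was at 35.9, 9.24 and 27.5 CPM in controls and 50.1, 22.5 and 27.5 CPM in deficient libraries, so set 3 was level (0.47 ± 0.79, SE). Ube2c (chr2:164769898-164778822), the ubiquitin-conjugating enzyme of the anaphase-promoting complex, went against the class in set 1 only among these sets. Its level was 98, 35.1 and 42.5 CPM in controls and 21, 67.4 and 48.1 CPM in deficient libraries, and its fitted difference of -0.35 ± 0.61 (SE) became 0.22 without Sox17 control 1.

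The remaining G2/M genes, each at or below 72.9 CPM in every library, included the proliferation marker Mki67, the mitotic cyclins Ccnb1, Ccnb2 and Ccna2, the Aurora kinases Aurka and Aurkb, the spindle checkpoint genes Bub1, Bub1b and Cdc20, the centromere proteins Cenpe and Cenpf, the kinesins Kif11 and Kif20a and the spindle assembly factor Tpx2. In the Sox17 arm 13 of these 14 had a fitted difference above 0, from 0.24 for Aurkb to 1.76 for Kif20a, and Cenpf was at -0.21. Their standard errors ran from 0.69 for Cenpe to 2.30 for Aurkb, and none passed the test. Mki67 was at 0, 18.2 and 27.6 CPM in controls and 17.5, 25.8 and 37.1 CPM in deficient libraries. It was higher in each set, with overlapping groups and no count in Sox17 control 1, where 3 counts make up 1.36 CPM. Kif20a, a kinesin of cytokinesis, was at 0.454, 20.1 and 27.2 CPM in controls and 72.9, 56 and 36 CPM in deficient libraries, and its groups did not overlap.

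In the replication machinery the differences were smaller. Mcm3 (chr1:20802968-20820312), a subunit of the MCM helicase, was at 58.1, 83.4 and 80.9 CPM in Sox17 controls and 89, 120 and 86.1 CPM in deficient libraries. All 3 deficient libraries were above the controls, by a little in set 3 (0.41 ± 0.47, SE). Mcm4 (chr16:15623897-15637400), another helicase subunit, was at 34.5, 96.5 and 89 CPM in controls and 116, 133 and 73.8 CPM in deficient libraries, with overlap (0.55 ± 0.47, SE). Mcm6 (chr1:128331590-128359664), a subunit of the same helicase, was at 40.4, 54.3 and 52.8 CPM in controls and 55.6, 50.3 and 40.1 CPM in deficient libraries, a fitted difference of -0.02 ± 0.57 (SE). Rrm1 (chr7:102441695-102469771), the large subunit of ribonucleotide reductase, was at 43.1, 23 and 47.9 CPM in controls and 50.8, 19.8 and 35.7 CPM in deficient libraries (-0.10 ± 0.55, SE). The helicase subunits were thus not level with each other in direction: Mcm3 and Mcm4 were above 0 and Mcm6 near 0, none of them past the test, and the sign for Mcm6 and Rrm1 depended on which library was left out.

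Of the other S phase genes, Mcm2, Mcm5 and Mcm7 had fitted differences of 0.54, 0.65 and 0.35, the thymidylate synthase Tyms 0.48 and the small reductase subunit Rrm2 0.85, with standard errors from 0.64 to 1.13. Rrm2 was at 14.5, 3 and 12.8 CPM in controls and 17.1, 22.7 and 14.6 CPM in deficient libraries, and its groups did not overlap. Pcna, the sliding clamp of the replication fork, went the other way, at 84.9, 24.8 and 29.9 CPM in controls and 65.9, 11.3 and 20.1 CPM in deficient libraries. It was the 1 gene of the 40 that was lower in all 3 Sox17 sets, though set 1 was far above the other sets in both libraries and the groups overlapped (-0.51 ± 0.71, SE). Ccnb1, Ccnb2, Pcna and Tyms have named pseudogenes that could share or split reads, and their values are uncertain to that extent.

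At the G1/S step, Cdt1 (chr8:122568015-122573554), which loads the MCM helicase onto origins, was at 12.3, 27.8 and 42.7 CPM in Sox17 controls and 20.5, 54.6 and 25.2 CPM in deficient libraries (0.27 ± 0.81, SE). Gins2 (chr8:120578633-120589304), a subunit of the GINS complex of the active helicase, was at 0, 22.6 and 34.2 CPM in controls and 42, 72.2 and 29.3 CPM in deficient libraries (1.32 ± 1.79, SE). E2f1 (chr2:154559407-154569892), an activating E2F factor, was at 18.6, 6.48 and 31.5 CPM in controls and 8.25, 35.6 and 36.2 CPM in deficient libraries (0.50 ± 1.09, SE). For all 3 genes the groups overlapped and 1 of the 3 sets went against the others. The licensing factor Cdc6 and the E-type cyclins Ccne1 and Ccne2 had fitted differences of 0.81, 1.26 and -0.04, with Ccne1 at 0 in Sox17 controls 1 and 2. Ccnd1 (chr7:144929931-144939925), the D-type cyclin that responds to growth factors, was at 1235, 504 and 1191 CPM in controls and 947, 848 and 1718 CPM in deficient libraries. Those groups overlapped, with a fitted difference of 0.26 ± 0.44 (SE). The strand setting of the counting was not given in the sources used here, so reads of an antisense neighbour whose exon lies within the last 1000 bases, as for 8 of the 40 genes, Ccnd1, Gins2, Ube2c, Kif20a, Ccna2, Cdc20, Mcm7 and Ccne2, cannot be told apart from their own.

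Counted by set, 15 of the 40 genes were higher in all 3 Sox17 sets, 12 of the G2/M class and 3 of the S phase class, against 13.1% of all genes tested. The 12 were Mki67, Top2a, Ccnb1, Cdk1, Birc5, Bub1b, Plk1, Ccna2, Cenpe, Kif20a, Kif23 and Nusap1, and the 3 were Mcm2, Mcm3 and Rrm2. Any difference above 0 was counted, for all genes as well, and some were almost level on the log2(CPM + 1) scale. Kif23 differed by 0.00 and Cenpe by 0.02 in set 3, and Nusap1 by 0.01 and Mcm2 by 0.03 in set 1. Only Pcna of the 40 was lower in all 3 sets, against 11.5% of all genes. By the stricter reading, in which every deficient library exceeds every control, 4 of the 40 qualified (Cdk1, Kif20a, Mcm3 and Rrm2) against 4.13% of all genes, and 0 qualified in the lower direction against 4.23%.

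In the Sox7 arm the cell cycle genes showed no common direction: set 1 was level and set 2 was lower on balance in the deficient library. The median fitted log2 fold change was -0.26 over the 40 genes, with 14 above 0 and 26 below, against 0.04 and 51.9% above 0 for all genes tested. By class it was -0.43 for G2/M (6 above 0 and 17 below), -0.09 for S phase (4 and 6) and 0.23 for G1/S (3 and 3). None of the 40 passed edgeR's quasi-likelihood test (0 of 40, with 0% of all genes tested called), none had an unadjusted p under 0.05 against 0.851% of all genes on the higher and 0.644% on the lower side, and DESeq2 and limma-voom called 0 as well. With the replicate block 2 genes, Cdt1 and E2f1, were at an unadjusted p under 0.05, and 0 were called. The share of all genes under 0.05 in that fit was not counted here either. The direction of the median rested on single libraries: it was 0.76 without Sox7 control 1, 0.29 without Sox7-deficient 2 and -1.46 without Sox7-deficient 1. Leaving out a library left 1 in its group, which was assumed to vary like the other groups.

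Within the sets, the median difference of the 40 genes was 0.05 in set 1 (24 higher and 16 lower) and -0.42 in set 2 (17 higher and 22 lower), against 0.03 and 0.00 for all genes tested. Set 1 changed sign, to -0.17, when library totals replaced the TMM-scaled sizes. The G2/M median was 0.06 and -0.87, and the G2/M sum of the deficient library was 0.989 and 0.487 times that of its control. The S phase median was 0.15 and -0.60, and the G1/S median 0.17 and 1.24. Set 2 thus held G2/M and S phase genes lower on balance in the deficient library, with both libraries low for most genes. Of the 6 G1/S genes, 4 were higher in that library and 1, Ccne1, was lower, while Ccne2 was at 0 in both. Control 2 held 0 counts of Gins2, 2 of E2f1 and 19 of Cdt1. The Sox7-deficient 1 library carried macrophage markers at a sum of 16399 CPM, against 979 CPM in control 1, 319 in control 2 and 179 in deficient 2, and a pan-endothelial sum of 10608 CPM against 18018 in control 1. All 16 macrophage markers were higher in that deficient library than in its control, and all 16 pan-endothelial markers were lower. Pericyte markers summed to 411 and 332 CPM in controls 1 and 2 and 341 and 691 CPM in deficient 1 and 2. The part of these markers in the result was not tested. Without Sox7-deficient 1 the G2/M median was -1.98 and the S phase median -0.77.

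Gene by gene in the G2/M class, given as control 1, deficient 1, control 2 and deficient 2, Top2a was at 208, 175, 39.1 and 7.83 CPM (-0.43 ± 1.38, SE). The gap between the sets was larger than the gap within either. Cdk1 was at 119, 142, 104 and 64.9 CPM (-0.10 ± 0.53, SE), Birc5 at 117, 96.1, 40 and 31.3 CPM (-0.30 ± 0.65, SE) and Plk1 at 103, 111, 75.4 and 40.9 CPM (-0.23 ± 0.88, SE). All 3 had overlapping groups, and Birc5 alone of them was lower in both sets. Ube2c was at 33.3, 48.3, 51.4 and 10.9 CPM (-0.52 ± 0.75, SE), Cenpa at 32.3, 50.2, 83.8 and 31.3 CPM (-0.51 ± 0.66, SE) and Nusap1 at 43.6, 45.6, 39.6 and 10.1 CPM (-0.58 ± 0.80, SE). These 3 were higher in the deficient library of set 1 and below the control in set 2. Kif23 was at 25, 17.5, 31.2 and 1.73 CPM (-1.55 ± 0.99, SE) and Foxm1 at 18.3, 13.3, 28.7 and 0.929 CPM (-1.73 ± 1.21, SE). For these genes both deficient libraries were below both controls.

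Of the replication and G1/S genes, Mcm3 was at 89.7, 85.3, 70.5 and 21.9 CPM (-0.58 ± 0.58, SE), Mcm4 at 60.3, 61.3, 55.1 and 33.4 CPM (-0.28 ± 0.57, SE) and Mcm6 at 29.7, 50.7, 58.6 and 9.16 CPM (-0.56 ± 0.70, SE). The 3 helicase subunits shared a low value in Sox7-deficient 2, and of them Mcm6 alone was well above its control in deficient 1. Rrm1 was at 36.3, 47.8, 41.6 and 24 CPM (-0.12 ± 0.68, SE), and Ccnd1 was at 1262, 1192, 734 and 820 CPM (0.01 ± 0.54, SE). Cdt1 went the other way from the helicase subunits, at 22.4, 66.4, 1.75 and 16.3 CPM, higher in the deficient library of both sets (1.78 ± 1.02, SE). E2f1 was at 24.3, 45.5, 0.184 and 18 CPM, again higher in both sets (1.38 ± 1.36, SE), and Gins2 was at 23.2, 35.4, 0 and 4.11 CPM (0.77 ± 2.18, SE). The groups overlapped for all 3, because control 1 was above deficient 2. Without Sox7 control 1 the fitted differences were 4.52 for Cdt1, 7.32 for E2f1 and 10.83 for Gins2. Control 2 then stood alone, with 19, 2 and 0 counts of these genes. Without Sox7-deficient 1 the differences were 0.40, 0.53 and -1.53. Without Sox7 control 2 they were 0.88, 0.38 and -0.24.

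By sets, 10 of the 40 genes were higher in both Sox7 sets (Aurkb, Bub1, Bub1b, Ccna2, Cenpf, Tpx2, Rrm2, Cdt1, Gins2 and E2f1) against 22.3% of all genes tested, and 8 were lower in both (Top2a, Birc5, Cdc20, Cenpe, Kif23, Foxm1, Mcm3 and Ccne1) against 22.5%. Groups did not overlap for 5 higher genes (Aurkb, Bub1, Bub1b, Ccna2 and Rrm2) against 12.7%, and for 3 lower genes (Cdc20, Kif23 and Foxm1) against 12.8%. Both counts of higher genes, as shares of 40, lay near those of all genes. Cdc20, the activator of the anaphase-promoting complex, was at 22, 19.1, 39.7 and 0 CPM, and Aurkb at 2.15, 4.76, 0.0922 and 9.95 CPM.

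**Figure D5:**
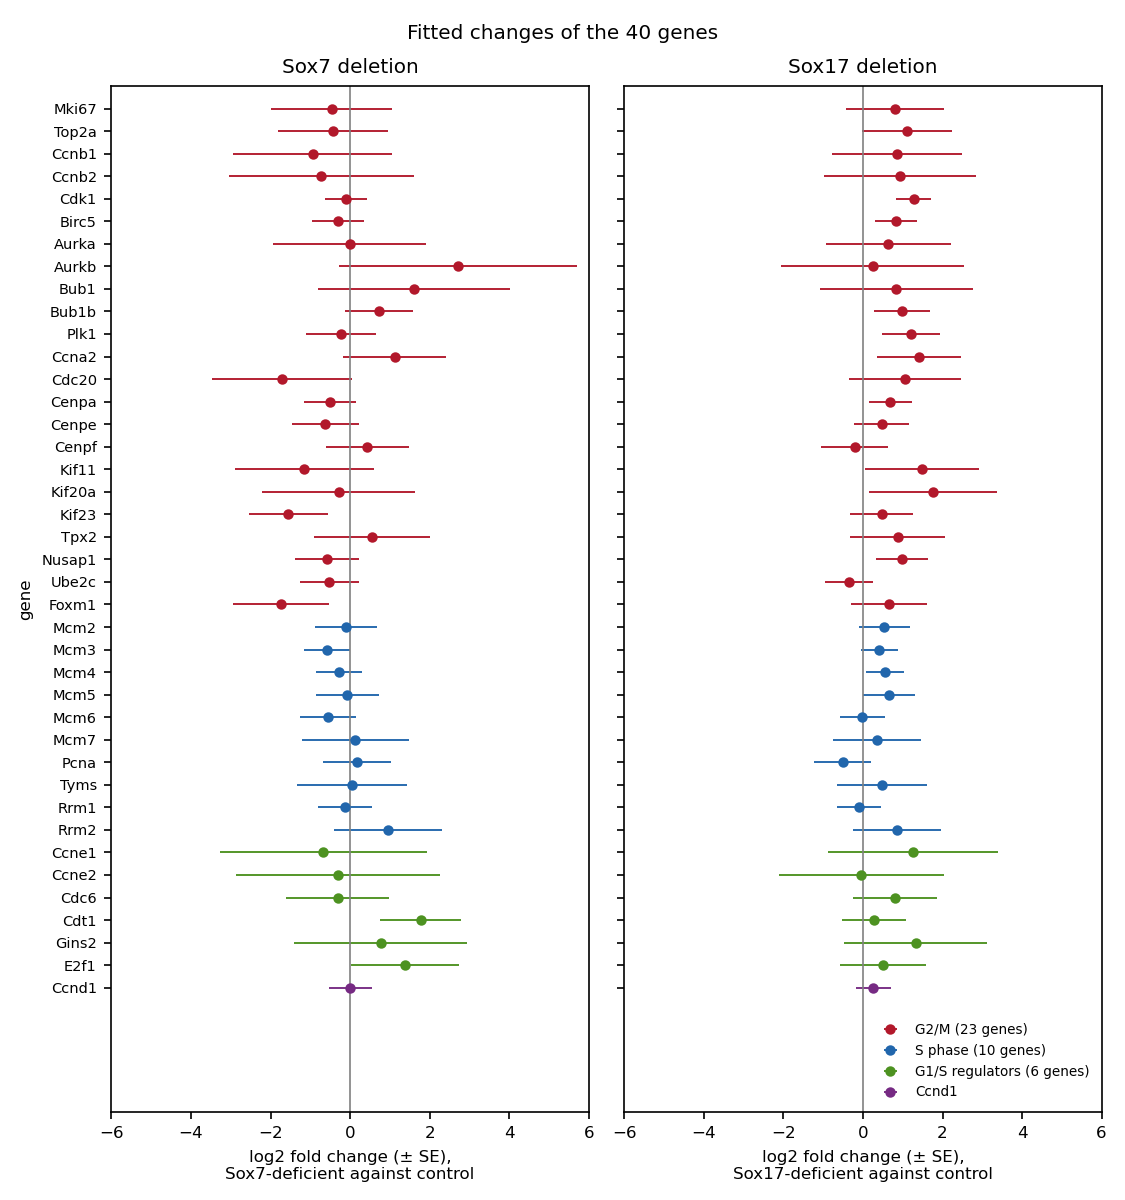
Fitted log2 fold change ± SE (horizontal axes) of each of the 40 genes (vertical axis) for Sox7-deficient against control (left) and Sox17-deficient against control (right), coloured by class. On the right 34 of 40 points lie above 0, and Cdk1 at 1.27 ± 0.44 has the error bar farthest from 0; on the left 14 lie above 0.

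The deletions were compared directly in the same fit, as the Sox7 difference minus the Sox17 difference. The median over the 40 genes was -0.69, with 33 of the 40 below 0, and it was -1.25 for G2/M, -0.49 for S phase and -0.41 for G1/S. By edgeR's quasi-likelihood test 0 of the 40 passed (0% of all genes tested), 0 had an unadjusted p under 0.05 against 1.99% of all genes on the higher and 0.874% on the lower side, and DESeq2 and limma-voom called 0. The smallest unadjusted edgeR p was 0.0618, for Cdk1 (-1.37 ± 0.69, SE). With the replicate block 5 of the 40 were at an unadjusted edgeR p under 0.05 and 0 were called. The share of all genes under 0.05 in that fit was not counted. A difference between the deletions was therefore not shown for any of these genes, and with 2 and 3 libraries a group the standard errors of the difference ran from 0.69 for Cdk1 to 3.69 for Aurkb. Over both arms, 3 of the 40 genes were higher in the deficient library of 5 of 5 sets (the checkpoint kinase Bub1b, the cyclin Ccna2 and Rrm2), against 3.32% of all genes tested, and 17 in at least 4 sets against 18.1%. In the lower direction there were 0 in 5 sets against 3.34%, and 1, Pcna, in at least 4 sets against 16.9%. Lower in every Sox7 set and higher in every Sox17 set were 5 of the 40 against 3.08% of all genes (Top2a, Birc5, Cenpe, Kif23 and Mcm3), and 0 showed the reverse against 2.19%. Bub1b was at 26.2, 28.7, 10.1 and 31.3 CPM in the Sox7 arm, 16.8, 12.6 and 24.2 CPM in Sox17 controls and 24.2, 15.5 and 65.8 CPM in Sox17-deficient libraries.

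Other genes of the cell cycle were described by lists that held none of the 40. Of 54 other mitosis genes tested, 44 had a Sox17 difference above 0 (median 0.70) and 17 were higher in all 3 sets, against 13.1% of all genes tested. In the Sox7 arm 19 of the 54 were above 0 (median -0.46), 22 were lower in both sets against 22.5% of all genes, and 8 were higher in both against 22.3%. Their Sox17 set medians were 1.30, 0.76 and 0.06, in the same order of sets as for the 23 G2/M genes. Of 42 other replication genes, 31 were above 0 in the Sox17 arm (median 0.47) and 22 in the Sox7 arm (median 0.08). The 17 G1 cyclins, kinases and E2F factors had medians of 0.23 and -0.07 in the Sox17 and Sox7 arms, and the 20 cell cycle inhibitors had -0.02 and -0.10. Neither arm had a gene of these lists past edgeR's adjusted threshold (0 in both), and DESeq2 and limma-voom gave 0 too. At an unadjusted p under 0.05 there was 1 gene in each arm, higher in the Sox17 arm (0.752% of all genes tested on that side) and lower in the Sox7 arm (0.644% on that side); as shares of the genes in these lists both counts were near those over all genes.

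In the Sox17 arm that gene was Ncapd2, a subunit of condensin, which compacts mitotic chromosomes. It was at 13.2, 38 and 63.1 CPM in controls and 83.8, 61.5 and 151 CPM in deficient libraries, higher in every set with overlapping groups and a fitted difference of 1.36 ± 0.54 (SE), an unadjusted edgeR p of 0.0215 and an adjusted p of 1. Ncaph, a second condensin subunit, was at 0.454, 7.98 and 13.5 CPM in controls and 34.8, 15.4 and 19.1 CPM in deficient libraries, without overlap (1.62 ± 0.97, SE). The spindle protein Tacc3 differed by 2.09 ± 1.29 (SE), the cyclin D partner Cdk4 by 1.03 ± 0.61 (SE), the E2F partner Tfdp1 by 1.21 ± 0.88 (SE) and the repressive E2F6 gene, E2f6, by 1.01 ± 1.04 (SE). The rule that chose these genes took only those whose sets all went one way, and these were higher in each Sox17 set. Their shared direction over the sets is therefore not a finding. In the Sox7 arm the gene was Timeless, a replication fork protection factor, at 132, 94.7, 207 and 69.7 CPM in control 1, deficient 1, control 2 and deficient 2. Both deficient libraries were below both controls, with a fitted difference of -1.05 ± 0.48 (SE), an unadjusted edgeR p of 0.0427 and an adjusted p of 1. The origin-firing kinase subunit Dbf4 (-1.17 ± 0.77, SE), the GINS subunit Gins4 (-2.27 ± 1.61, SE), securin Pttg1 (-1.13 ± 0.69, SE), the E2F partner Tfdp2 (-0.89 ± 0.68, SE) and E2f3 (-1.19 ± 1.59, SE) were lower in both Sox7 sets. Ccnd2, a D-type cyclin, was higher in both Sox7 sets (0.85 ± 0.84, SE), and the cyclin Ccng2 was lower in both (-0.65 ± 0.62, SE). The same rule chose these Sox7 genes, so it fixed in advance that their sets went one way.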

How the data were processed

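RNA of 10 libraries, each made from 500 ng of total RNA, was read with a 3′ tag kit per the labels' protocols, which gives about 1 tag per transcript whatever its length; no molecular identifiers are mentioned. The deposited values were raw counts per gene symbol made by the authors, 1 file per library, and were not normalised. Bowtie2, edgeR and mm10 are named per the submitters' processing notes; their roles, the versions, the counting tool and the annotation are not given in the sources used here. The 1183 symbols beginning with Mir that only the Sox17 files list were left out, and repeated symbols (35 in the Sox7 and 43 in the Sox17 files) were summed. The ribosomal precursor Rn45s, 3.93 to 28.8% of a library, was kept.

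The tests ran in edgeR 4.0.16 under R 4.3.3 (TMM, trimmed mean of M-values, filterByExpr, robust quasi-likelihood F-test, a mean per group over all 10 libraries, 6 residual degrees of freedom, biological coefficient of variation 0.989). The filter removed 10198 genes and 13040 were tested, with Benjamini-Hochberg adjustment over all of them at 0.05. A standard error is the size of the log2 fold change over the root of its F value. CPM uses TMM-scaled library sizes, set differences use log2(CPM + 1), and groups are given as mean ± SD or as single values. The steps were tested on simulated data with large changes in genes that varied independently. That test does not measure the power to detect the differences given here. Alternatives were RLE scaling, Rn45s left out, no filter, DESeq2 1.42.0, limma-voom (limma 3.58.1), each arm alone, the replicate block, each library left out, other pseudocounts (0.5 and 5) and library totals. The set numbers come from the sample titles. Run labels tie the libraries of 4 of the 5 sets but are absent for Sox17 set 1, and samples were treated as paired by number. Paired deviations from the group means correlated at 0.202 in the Sox7 arm and 0.0717, 0.0625 and 0.0528 in Sox17 sets 1, 2 and 3.

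The genes, the lists (other replication, other mitosis, G1 cyclins with kinases and E2F factors, inhibitors, and markers of endothelium, macrophages, T and NK cells, pericytes, glioma and neural progenitors, astrocytes and neurons) and the tests were chosen with earlier results of these data known. Given in full were the 6 G2/M, 4 S phase and 2 G1/S genes with the highest mean CPM, Ccnd1 and, per arm, the 4 genes with the smallest p whose sets all went one way; of each other list, the 3 such genes per arm. Any further gene named was chosen after its values were seen. Gene positions are those of GENCODE vM21 (GRCm38, equal to mm10).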

Additional observations from a re-analysis of the deposited data

Results flagged for a closer look

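For 5 of the 40 genes every Sox7-deficient library was below its control while every Sox17-deficient library was above its own, against 3.08% of all genes tested; the reverse pattern had 0 genes, against 2.19%. The difference between the deletions was tested for each by the interaction term of edgeR's fit, and every adjusted p was 1. It was -1.54 on the log2 scale for Top2a (unadjusted p = 0.416), -1.13 for Birc5 (0.197), -1.09 for Cenpe, the mitotic kinesin CENP-E (0.332), -2.02 for Kif23 (0.126) and -0.99 for Mcm3 (0.204). Some of the set differences behind this were close to 0: Kif23 was at 27.5 CPM in both libraries of Sox17 set 3, and Cenpe differed by 0.02 in Sox17 set 3 and by -0.06 in Sox7 set 1 on the log2(CPM + 1) scale.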

How the results depend on the processing

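No setting called any of the 40 genes in either arm or in the difference, or any of the other cell cycle genes in either arm, and the replicate block changed no call. Leaving out 1 library turned 20 of 58 fitted values of named genes in 1 or more runs, and the other settings turned 2; the causes were not tested. The Sox7 median of the 6 G1/S genes, 0.23, was 1.34 with limma-voom and 1.11 with the replicate block. Ube2c in the Sox17 arm, -0.35, was 0.14 with limma-voom and 0.56 without both libraries of Sox17 set 1. Ccnd1 in the Sox7 arm, 0.01, was -0.01 without the filter and -0.02 with the Sox7 libraries alone.

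With 1 library left out, the Sox7 medians ranged from -1.46 to 0.76 over the 40 genes, -1.98 to 0.64 for G2/M, -0.77 to 0.25 for S phase and -1.46 to 5.92 for G1/S. The Sox7 values ranged from -4.01 to 1.20 for Top2a, -0.80 to 0.36 for Cdk1, -1.36 to 0.64 for Birc5, -1.15 to 0.32 for Plk1, -1.98 to 0.19 for Ube2c, -1.06 to 0.33 for Cenpa, -2.07 to 0.13 for Nusap1, -1.90 to 0.09 for Mcm3, -0.81 to 0.09 for Mcm4, -2.29 to 0.20 for Mcm6 and -0.72 to 0.29 for Rrm1. They ranged from -1.53 to 10.83 for Gins2, -0.33 to 0.43 for Ccnd1, -2.43 to 0.23 for Ncaph and -0.12 to 2.61 for Ccnd2. The Sox17 values ranged from -0.75 to 0.22 for Ube2c, -0.15 to 0.10 for Mcm6, -0.46 to 0.19 for Rrm1, -0.28 to 0.73 for Cdt1 and -0.12 to 0.45 for Ccnd1. Calls over all genes tested, 0 in each arm with edgeR, numbered 29 (Sox17) and 3 (Sox7) with DESeq2, 6 and 1 with the replicate block and 30 and 58 without the filter. In the shallowest library, Sox17 control 1, a level under 1.36 CPM rests on fewer than 3 counts.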

Other observations

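Among the named genes outside the 40, several inhibitors and checkpoint genes kept 1 direction over both deletions. Cdkn2a, which encodes the inhibitor p16 and the p53 regulator p19Arf, was higher in the deficient library of 5 of 5 sets, at 10.4, 24.8, 1.66 and 13 CPM in Sox7 control 1, deficient 1, control 2 and deficient 2. In the Sox17 arm Cdkn2a was at 0, 15.2 and 13.9 CPM in controls and 34.7, 30.8 and 19.5 CPM in deficient libraries, without overlap (1.52 ± 1.14, SE). Cdkn1a, the inhibitor p21, was lower in 5 of 5 sets (-0.48 ± 0.45, SE, in the Sox7 arm and -0.16 ± 0.37, SE, in the Sox17 arm). Its set differences ran from -0.79 in Sox7 set 2 to -0.05 in Sox17 set 3 on the log2(CPM + 1) scale. The stress-induced Gadd45a was also lower in 5 of 5 sets (-0.85 ± 1.39 and -1.29 ± 1.15, SE, in the Sox7 and Sox17 arms). Fzr1, the coactivator of the anaphase-promoting complex in G1, was higher in each Sox17 set (0.88 ± 0.55, SE).

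Geminin, Gmnn, which blocks relicensing by Cdt1, and Pole2, a subunit of DNA polymerase epsilon, were also higher in 5 of 5 sets. Gmnn was at 0, 7.66 and 15.4 CPM in Sox17 controls and 24.3, 29.4 and 34.1 CPM in deficient libraries, and Pole2 at 9.53, 5.53 and 5.51 CPM in controls and 19.5, 33.6 and 23.8 CPM in deficient libraries. Neither group overlapped, with fitted differences of 1.90 ± 1.20 (SE) and 1.91 ± 1.16 (SE). Slbp, which binds the stem-loop of histone transcripts, was at 26.3, 26.5 and 23.6 CPM in Sox17 controls and 17.6, 11.9 and 5.96 CPM in deficient libraries (-1.11 ± 0.78, SE), also without overlap. The checkpoint protein Bub3 was higher in 5 of 5 sets, mostly in the Sox7 arm (0.65 ± 0.45, SE, against 0.12 ± 0.36, SE, in the Sox17 arm). None of these genes passed the adjusted threshold, and over all genes tested 3.32% were higher and 3.34% lower in 5 of 5 sets. The genes named here were chosen among those whose sets went one way in an arm, so their direction in that arm was fixed by the choice.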
